A study of Mus musculus with 12 samples.

Results

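The transcriptome of female neural stem and progenitor cells (NSPCs) was compared with and without pravastatin in 6 of the 12 libraries of the series, chosen as the libraries of 3 female cultures. The cells were grown as neurospheres, floating clusters that proliferate under growth factors, from the cortex of individual C57BL/6 mouse embryos at embryonic day 14.5 and were used at passage 3. Pravastatin was given at 10 μM for 24 hours to female cultures 1, 2 and 3 (3 libraries), and vehicle, phosphate-buffered saline, to the same 3 cultures (3 libraries). The other 6 libraries, 3 with pravastatin and 3 with vehicle, came from male cultures and enter only the comparison of the sexes. The labels name no genetic change in any group. A neurosphere holds stem cells together with their glial and neuronal progeny, so fewer cells of a type and less RNA per cell cannot be told apart in these bulk libraries.

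Cholesterol is built from acetyl-CoA through mevalonate, isoprenoids, squalene and lanosterol. The membrane-bound transcription factors SREBP1 and SREBP2 are held in the endoplasmic reticulum by INSIG proteins while sterol is plentiful, and are released and cleaved when sterol falls, after which they enter the nucleus and activate genes of sterol and fatty acid synthesis. The liver X receptors (LXRs) sense oxidised sterols and activate the opposite programme, the export of cholesterol on lipoproteins. Statins block sterol synthesis early in the mevalonate pathway, and neural progenitors of the embryonic brain make most of their own cholesterol.

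The promoters of 3 enzymes that led the response are shown because SREBPs act at such windows together with NF-Y, which binds the CCAAT box. Each runs 5′ to 3′ on the gene's strand from 250 bases before to 50 bases after the transcription start (RefSeq, GRCm38.p6). Capitals mark CCAAT, or ATTGG on the other strand, and the sterol regulatory element core TCACNCCAC on either strand. The windows are chr13:119690101-119690400 on the plus strand for Hmgcs1, chr8:122443373-122443672 on the minus strand for Mvd and chr19:6067801-6068100 on the minus strand for Tm7sf2.
Hmgcs1: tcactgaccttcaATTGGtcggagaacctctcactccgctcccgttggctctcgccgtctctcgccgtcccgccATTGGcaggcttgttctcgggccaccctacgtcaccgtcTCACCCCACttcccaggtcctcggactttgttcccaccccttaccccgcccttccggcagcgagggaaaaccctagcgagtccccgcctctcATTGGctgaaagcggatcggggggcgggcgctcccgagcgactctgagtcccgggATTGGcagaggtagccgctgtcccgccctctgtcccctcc
Mvd: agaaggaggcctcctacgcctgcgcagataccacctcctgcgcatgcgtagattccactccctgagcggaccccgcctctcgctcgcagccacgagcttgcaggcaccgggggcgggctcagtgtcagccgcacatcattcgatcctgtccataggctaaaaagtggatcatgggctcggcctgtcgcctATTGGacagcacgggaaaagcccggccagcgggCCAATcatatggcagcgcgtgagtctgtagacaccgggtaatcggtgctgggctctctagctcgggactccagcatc
Tm7sf2: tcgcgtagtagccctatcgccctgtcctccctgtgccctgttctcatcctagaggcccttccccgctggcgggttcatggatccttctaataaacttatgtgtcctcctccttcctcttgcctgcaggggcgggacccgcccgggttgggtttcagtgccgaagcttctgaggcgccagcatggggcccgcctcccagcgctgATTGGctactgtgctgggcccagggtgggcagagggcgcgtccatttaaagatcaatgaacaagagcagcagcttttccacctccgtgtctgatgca
In Hmgcs1 the core TCACCCCAC began 137 bases before the start, and 4 boxes in the ATTGG orientation began 237, 176 and 45 bases before it and 10 bases after it. A CCAAT box in either orientation stood in 77.8% of the promoter windows of cholesterol synthesis genes, in 56% of those of all genes called higher below, and in 38% of those of all genes tested. The sterol core stood in 5.56%, 3.14% and 1.13% of the same windows. It was found in 5 genes called higher, Hmgcs1, Aldh9a1, Crmp1, Echdc1 and Spp1. Genes past the test in the lower direction held CCAAT in 53.1% of 32 windows, close to the share in genes that rose. Of 20 cholesterol synthesis genes 15 matched a window, and of 180 genes called higher 124 did. A match describes the letters in these windows and is not evidence of binding.

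Sequencing gave 18202587, 15889304 and 15293633 reads in the pravastatin libraries of cultures 1, 2 and 3, against 17280562, 17482339 and 16496311 in their vehicle libraries, summed over the genes of the deposited table. A value is a normalized read count, and 3 reads correspond to 0.165 to 0.200. All 17 neural stem and radial glia markers were above 1 in every female library. In each of these libraries 14840 to 15099 of 16106 genes were above 1, so this does not set the markers apart. None of the 11 microglia and 6 erythroid markers listed had a row in the table, and the 4 endothelial markers tested did not exceed 3.02. Nothing in the sources used here says whether pravastatin and vehicle libraries were prepared together, so preparation and treatment cannot be told apart.

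Female cultures 1 and 2 lay further apart on the first principal component than either did by treatment. This component held 71.4% of the variance of the 6 libraries. On it pravastatin libraries were at -40.9, 32.3 and -3.44 and vehicle libraries at -47.2, 39.2 and 20.0 in cultures 1, 2 and 3. It thus set culture 1 apart from culture 2, while culture 3 also shifted with treatment. The second component held 11.7%, with pravastatin libraries at 15.2, 17.0 and 6.65 and vehicle libraries at -14.9, -6.74 and -17.2 in cultures 1, 2 and 3. Gfap, the filament protein of astrocytes, stood at 5.76, 507 and 69.3 in the pravastatin libraries of cultures 1, 2 and 3, against 3.97, 408 and 179 in their vehicle libraries. For Gfap, cultures 2 and 3 were thus far above culture 1 with either treatment. Mbp, a myelin protein, had values of 1.54, 91.2 and 24.7 with pravastatin and 0.895, 76.3 and 29.0 with vehicle. With vehicle the astrocyte markers summed to 1952, 4595 and 3636 and the oligodendrocyte lineage markers to 1748, 2654 and 2196. Not every marker followed this order. Acsbg1 and Cd44, of the astrocyte markers, were at 332, 181 and 237 and at 43.4, 22.7 and 30.4 with vehicle. Olig1 and Olig2, of the oligodendrocyte lineage, were at 862, 746 and 755 and at 439, 325 and 322, also highest in culture 1. Between vehicle libraries, 313 genes were over 4-fold apart in cultures 2 and 1, 143 in cultures 3 and 1, and 2 in cultures 3 and 2. These levels are a description, since each culture has 1 library per treatment.

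**Figure D1:**
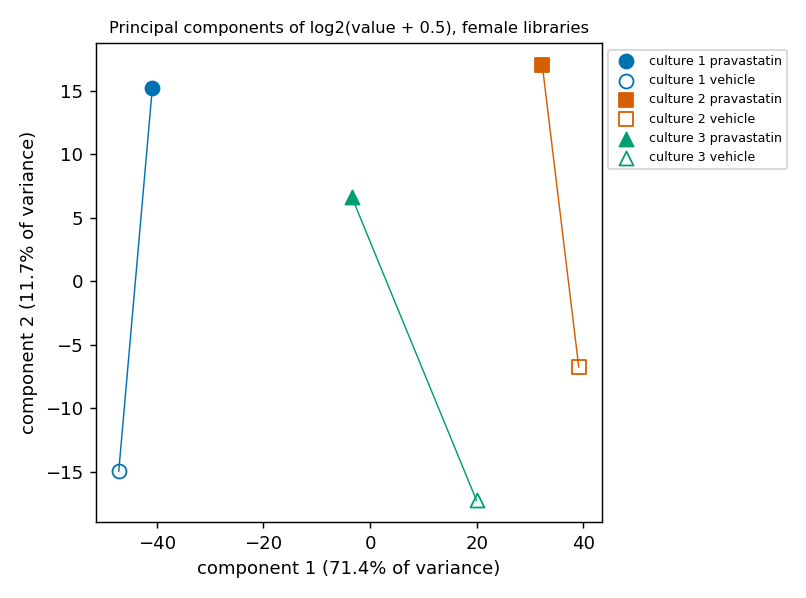
Principal components 1 (71.4% of the variance) and 2 (11.7%) of log2(value + 0.5) in the 6 female libraries, with filled symbols for pravastatin, open symbols for vehicle and a line joining each culture's pair. Component 1 separates culture 1 from culture 2, and component 2 is higher with pravastatin in each of the 3 pairs.

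The comparison asked which genes moved with pravastatin in all 3 cultures despite this difference in glial state. Changes were log2 differences of value + 0.5 within each culture, tested with limma with a term for the culture over 15185 genes and adjusted by the Benjamini-Hochberg method. With both a 1.5-fold change and an adjusted p under 0.05 required, 180 genes were called higher (1.19% of those tested) and 7 lower (0.0461%). By adjusted p alone 296 genes rose (1.95%) and 28 fell (0.184%). Every one of these 296 and 28 genes moved the same way in each of the 3 cultures. A paired test with 3 pairs favours such genes, so this agreement follows largely from the selection. Among all genes tested, 18.4% were higher in all 3 cultures and 18.8% were lower, a near balance that the called genes did not share. Above 1.5-fold in each culture separately were 147 genes in the higher direction (0.968%) and 2 in the lower direction (0.0132%). Of the 180 genes called higher, 138 exceeded 1.5-fold in each culture and 152 had all pravastatin libraries above all vehicle libraries, against 4.43% of all genes. The 180 were selected for their change, which favours both counts. The count of genes called lower was 84 without culture 1, that of all falls past adjusted p was 254, and the count of falls past adjusted p alone was 5 without culture 2 and 74 without culture 3. The count of genes past adjusted p alone in the higher direction was 532, 174 and 449 without cultures 1, 2 and 3. Without the culture term 11 genes were called higher and none lower by limma, with 431 genes at an unadjusted p under 0.05.

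**Figure D2:**
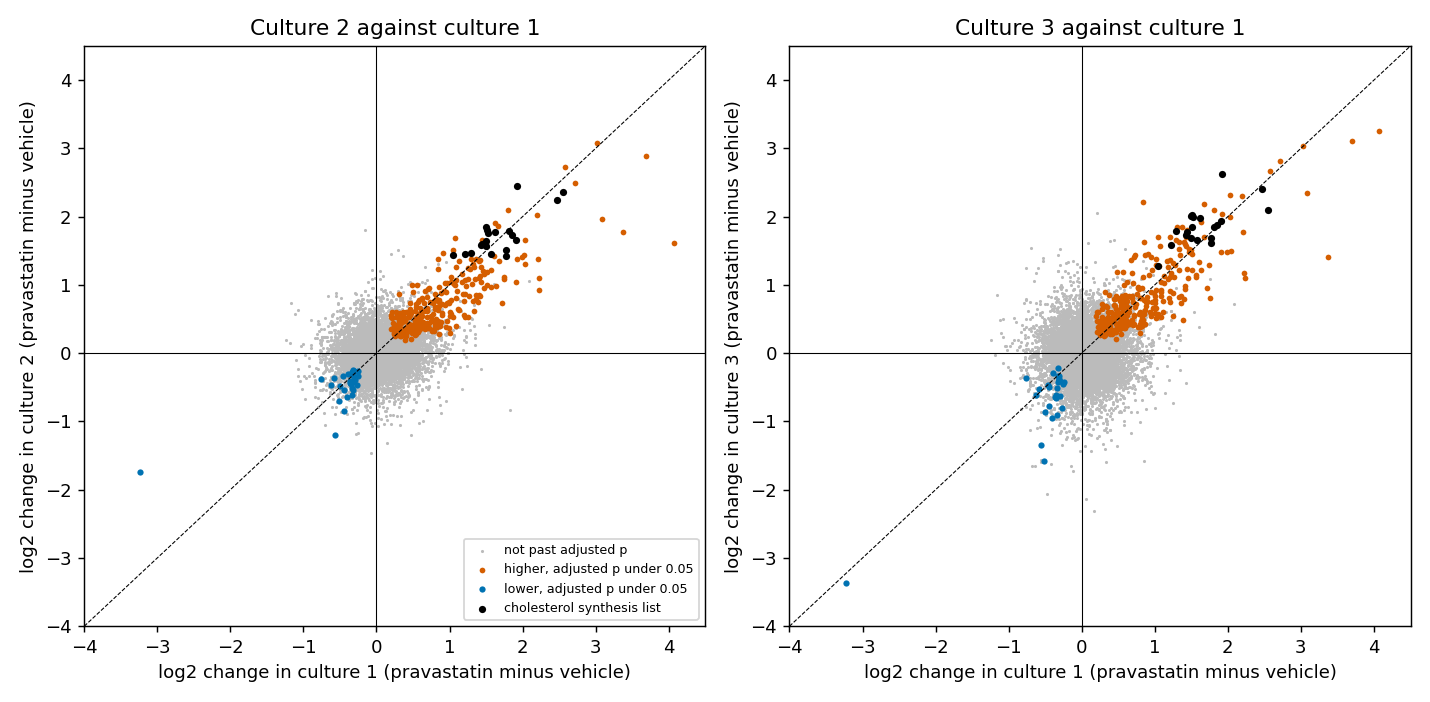
Log2 change (pravastatin minus vehicle) in culture 2 (left) and culture 3 (right) against that in culture 1, with 1 point per gene for 15185 genes and a dashed line of equal change. Genes past an adjusted p of 0.05 in the higher direction (296, orange), the 20 cholesterol synthesis genes (black) and the 28 past it in the lower direction (blue) lie on one side of 0 in both panels, and Abca1 is the isolated point at the lower left.

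All 20 enzymes of cholesterol synthesis measured were called higher, against 1.19% of all genes tested. They rose by 1.25 to 2.37 on the log2 scale, with a median of 1.72 against -0.01 over all genes tested. Their summed value was 16004, 11278 and 13497 in the pravastatin libraries of cultures 1, 2 and 3, against 5269, 3348 and 3429 in the vehicle libraries, which is 3.04-, 3.37- and 3.94-fold. Every enzyme had all 3 pravastatin libraries above all 3 vehicle libraries, against 4.43% of all genes. The list was chosen with earlier results of these data known. Ranked by p, the first 25 genes of the whole table were all higher and 12 of them came from this list, and the first 50 were also all higher with 19 from it.

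In the early pathway, Acat2, the cytosolic thiolase that joins acetyl-CoA units, stood at 475, 325 and 381 with pravastatin, against 131, 97.8 and 103 with vehicle (log2 change 1.82 ± 0.06 SE, limma adjusted p = 5.51e-06). Hmgcs1, which forms HMG-CoA and holds both promoter motifs above, was at 4415, 3690 and 4466 with pravastatin and at 1437, 1080 and 1132 with vehicle. Its change was 1.79, with an adjusted p of 2.38e-05 by limma. For both genes the 3 pravastatin libraries lay well above the 3 vehicle libraries. Mvk and Pmvk, the mevalonate and phosphomevalonate kinases, rose by 1.63 and 1.83.
Mvd, which decarboxylates mevalonate diphosphate to the isoprene unit, was at 561, 345 and 421 with pravastatin, against 101, 72.4 and 78.9 with vehicle, a change of 2.37 ± 0.06 (SE; limma adjusted p = 2.9e-06). It was the largest rise in the list. Idi1, the isopentenyl diphosphate isomerase, had the smallest, 1.25, with 53.6, 35.7 and 31.5 against 25.7, 12.9 and 12.7. Fdps, which makes farnesyl diphosphate, the branch point to protein prenylation, rose by 1.58.

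In the squalene and lanosterol steps, Fdft1, squalene synthase, rose by 1.61 and Sqle, squalene epoxidase, by 1.42. Lss, lanosterol synthase, was at 1191, 898 and 1184 with pravastatin, against 315, 164 and 191 with vehicle. Its changes of 1.92, 2.45 and 2.63 in cultures 1, 2 and 3 gave a mean of 2.33 ± 0.12 (SE; limma adjusted p = 3.98e-05).
Cyp51, Tm7sf2, Msmo1, Nsdhl, Hsd17b7, Ebp, Sc5d and Dhcr7 carry lanosterol through demethylation, reduction and isomerisation towards cholesterol. Tm7sf2, a sterol reductase, was at 235, 195 and 164 with pravastatin, against 39.7, 37.6 and 37.9 with vehicle, a change of 2.34. Its 3 vehicle libraries were close together although they came from cultures with very different levels of Gfap and Mbp. Dhcr7, a sterol reductase late in the pathway, rose by 1.59, Cyp51 by 1.76 and Ebp by 1.63.
The rise of these enzymes was largest in culture 3 for 15 of 20, and the median change was 1.55, 1.65 and 1.84 in cultures 1, 2 and 3. With 1 pair per culture this order has no test.

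**Figure D3:**
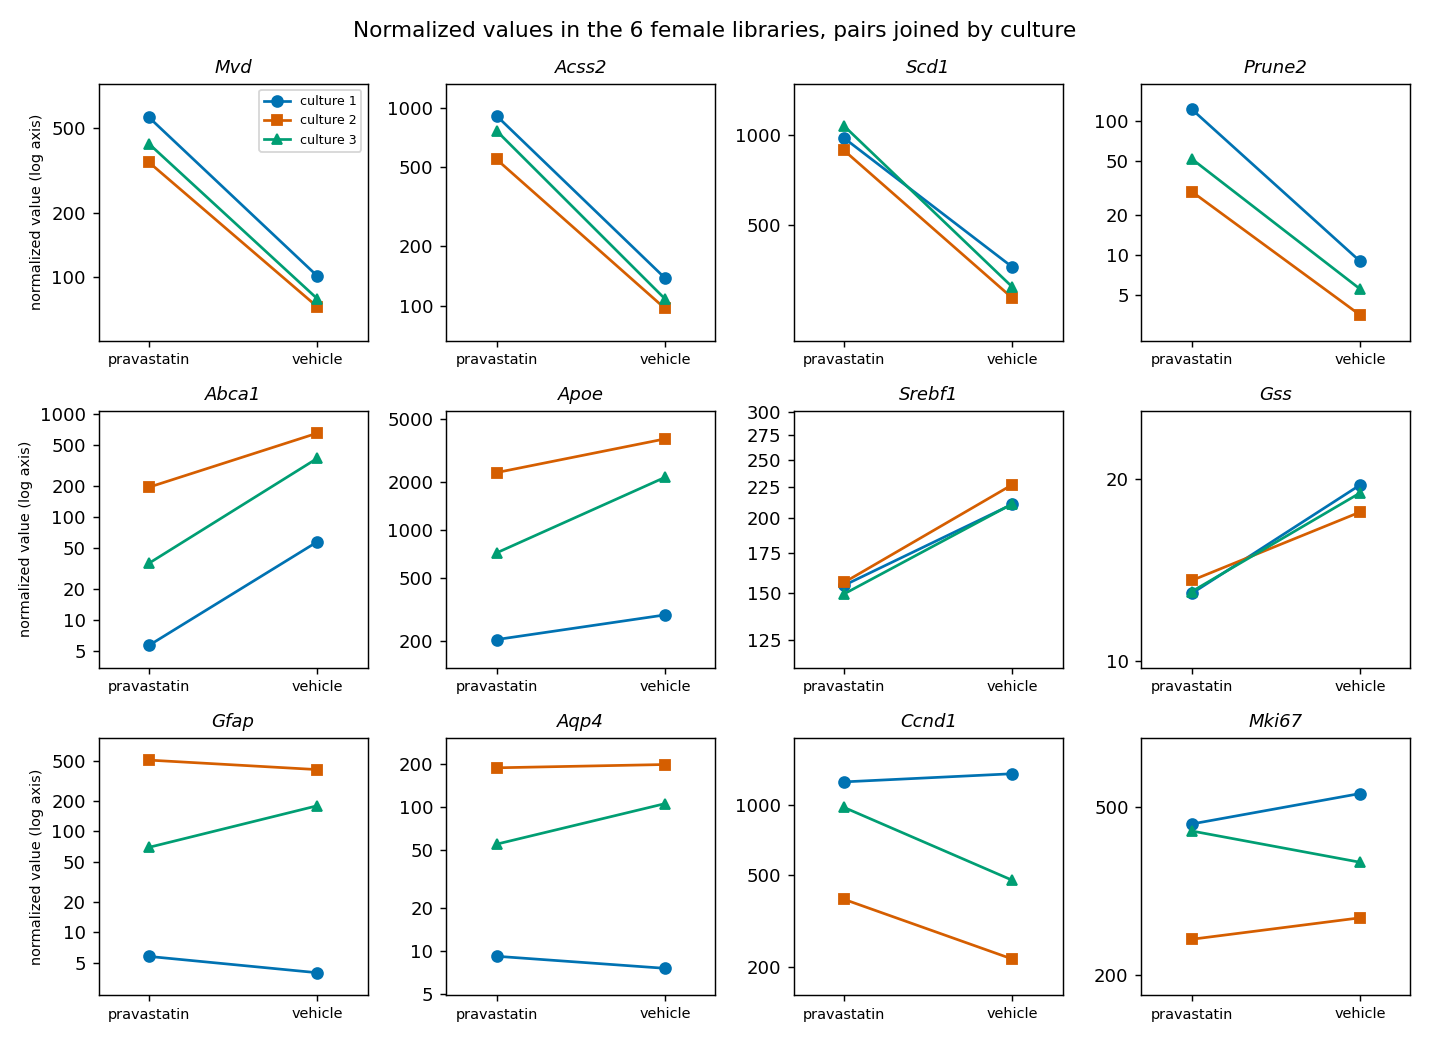
Normalized values (log axis) of 12 genes in the 6 female libraries, pravastatin on the left and vehicle on the right, with a line for each culture. Mvd, Acss2, Scd1 and Prune2 are higher with pravastatin and Abca1, Apoe, Srebf1 and Gss lower in all 3 cultures, whereas Gfap, Aqp4, Ccnd1 and Mki67 differ in direction between cultures.

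Fatty acid synthesis rose with sterol synthesis but less uniformly. Of 25 genes 18 rose and none fell by adjusted p, against 1.95% and 0.184% of all genes tested. The median change was 0.86. Acss2, which makes acetyl-CoA from acetate, was at 909, 548 and 763 with pravastatin, against 138, 96.8 and 108 with vehicle (log2 change 2.67 ± 0.07 SE, limma adjusted p = 2.9e-06). Its groups were widely apart, and its change was the largest of the list. Acly, the enzyme that releases acetyl-CoA from citrate, rose by 1.46, and Fasn, fatty acid synthase, by 1.37.
Scd1, the desaturase that makes oleate, was at 979, 890 and 1075 with pravastatin, against 360, 283 and 308 with vehicle, a change of 1.63 (limma adjusted p = 2.19e-05). Acsl3, which activates long fatty acids, rose by 1.37. Acacb, the acetyl-CoA carboxylase of mitochondria, changed by -0.11 and Mcat, of mitochondrial fatty acid synthesis, by -0.12, and neither passed the test.

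The regulators of the pathway did not move as a group: 3 of 15 genes for sterol sensing and SREBP processing rose and 1 fell. The shares over all genes tested were 1.95% and 0.184%. Insig1, the sterol-dependent anchor of SREBPs, was at 1052, 803 and 945 with pravastatin, against 397, 316 and 305 with vehicle, a change of 1.46 ± 0.07 (SE; limma adjusted p = 2.49e-05). Insig2 changed by -0.05 and did not pass. Srebf2, which encodes SREBP2, stood at 312, 219 and 223 with pravastatin and at 203, 126 and 139 with vehicle (0.70, limma adjusted p = 0.000614). Tmem97, a sterol-regulated membrane protein, rose by 0.91. Srebf1, which encodes SREBP1 and is itself an LXR target, went the other way, at 154, 156 and 149 with pravastatin against 211, 227 and 211 with vehicle. Its groups did not overlap and its change was -0.50 (limma adjusted p = 0.00263, and 0.0586 without culture 2). Scap, the SREBP escort, changed by -0.12 and did not pass.

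Of 21 genes of sterol uptake and carriage 7 rose and none fell, against 1.95% and 0.184% of all genes tested. Stard4, a soluble sterol carrier, was at 512, 327 and 448 with pravastatin, against 161, 89.6 and 97.7 with vehicle, a change of 1.91 (limma adjusted p = 2.8e-05). Scarb1, a lipoprotein receptor, rose by 1.26 in a narrow range of 1.23 to 1.29 over the cultures. Of 24 glycerolipid and phospholipid genes only Pcyt2, of phosphatidylethanolamine synthesis, and Lpin1, a phosphatidate phosphatase, passed, at 1.44 and 0.50.

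Some genes of cholesterol export fell. Of 14 LXR receptors and targets tested, 4 fell and none rose, with a median of -0.29. Of all genes tested, 0.184% fell and 1.95% rose by adjusted p. Abca1, the transporter that loads cholesterol onto lipoproteins, was at 5.71, 196 and 35.8 with pravastatin in cultures 1, 2 and 3, against 57.8, 656 and 374 with vehicle. It fell in each culture, by 3.23, 1.74 and 3.37 on the log2 scale. Its level in pravastatin-treated culture 2 nevertheless exceeded that in vehicle-treated culture 1, so that the groups overlap. The mean change was -2.78 ± 0.27 SE (limma adjusted p = 0.00148, and 0.0755 by limma without its trend). Apoe, the lipoprotein that astrocytes release, was at 203, 2290 and 715 with pravastatin, against 291, 3730 and 2136 with vehicle. Its changes were -0.51, -0.70 and -1.58, a mean of -0.93 (limma adjusted p = 0.0401, 0.106 by DESeq2 and 0.235 by limma without its trend). Smpdl3a, an LXR-induced phosphodiesterase, fell by 0.34 and Srebf1 is described above. Smpdl3a had adjusted p = 0.0418 by limma and 0.0822 by DESeq2, and by limma 0.3 without culture 2 and 0.0547 without culture 3. Culture 3, in which Apoe fell most, is also the culture in which Gfap was lower with pravastatin. The astrocyte markers summed to 2050, 4681 and 3071 with pravastatin and to 1952, 4595 and 3636 with vehicle in cultures 1, 2 and 3. The part of glial state in these falls was not tested.

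**Figure D4:**
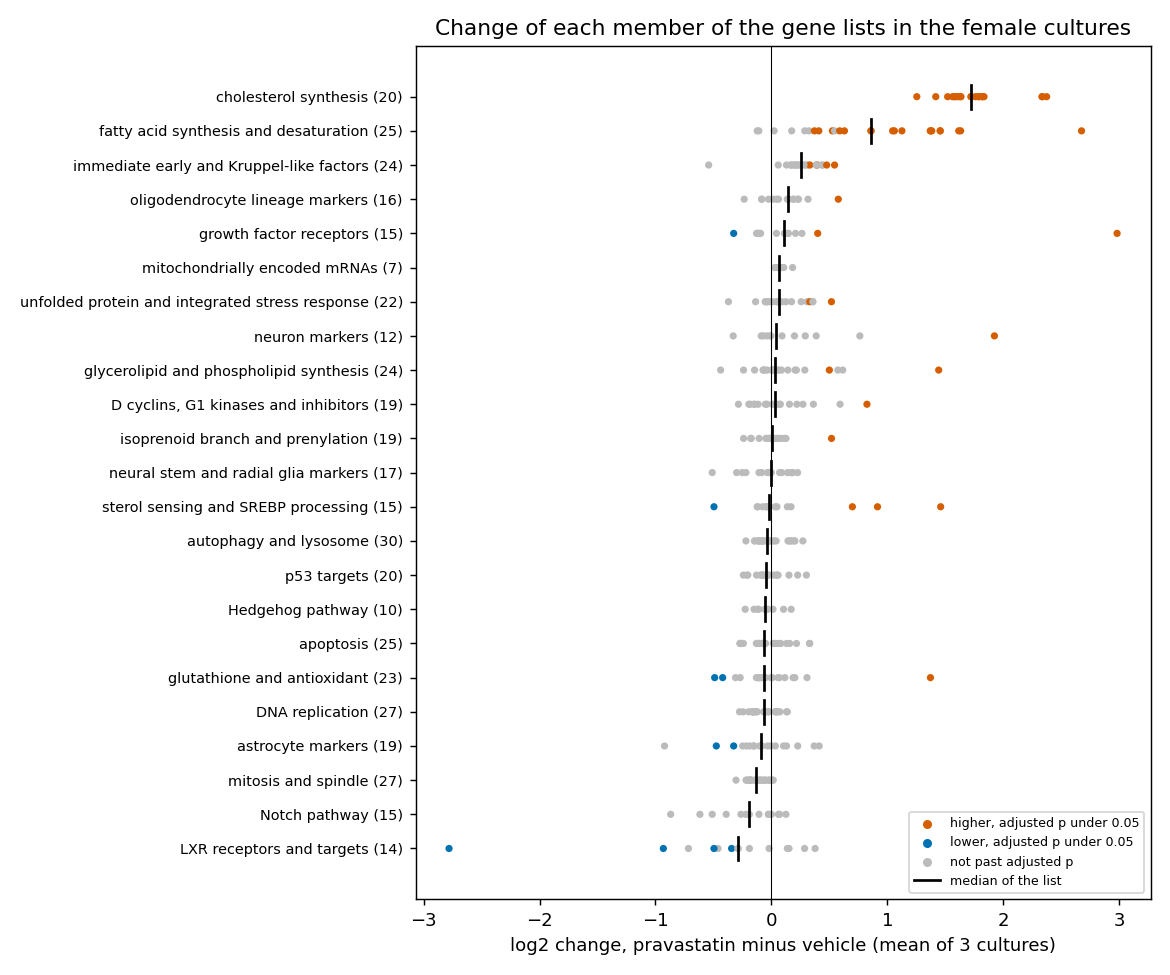
Log2 change (pravastatin minus vehicle, mean of 3 cultures) of each member of the gene lists with at least 5 genes tested (2 lists are not drawn), 1 point per gene, with the number of genes tested in brackets, a bar for each list's median, and orange or blue for members past an adjusted p of 0.05 in the higher or lower direction. Cholesterol synthesis (median 1.72) and fatty acid synthesis (0.86) stand apart, and most other lists centre near 0.

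Of the 180 genes called higher, 137 had symbols outside the lists of lipid genes. Pseudogene copies of lipid enzymes, such as Gm3571 and Gm13502 described below, are counted among the 137. These genes also included Prune2, at 123, 29.8 and 52.2 with pravastatin against 9.01, 3.58 and 5.59 with vehicle. Its change was 3.23 ± 0.15 (SE, limma adjusted p = 2.19e-05). Prune2 was far higher with pravastatin in each culture and had the largest rise of the genes named here. Pdgfrb, a receptor tyrosine kinase of mural cells and their precursors, was at 15.4, 13.7 and 10.0 with pravastatin against 0.448, 4.15 and 0.601 with vehicle, a rise of 2.98 that ranged from 1.61 in culture 2 to 4.07 in culture 1. The other 3 mural markers tested did not pass by limma. Cspg4, which oligodendrocyte precursors also express, was at 285, 157 and 219 with pravastatin and 274, 124 and 177 with vehicle (0.23). Acta2 and Col1a1, at or below 4.33 in every library, changed by -0.52 and -0.44. The part of a change in cell types in the rise of Pdgfrb was not tested. Gramd2, of a family of lipid-binding membrane proteins, rose by 2.66, Slc2a6, a sugar transporter of lysosomes, by 2.47, Dnaaf3, a factor for dynein arm assembly, by 2.18 and Papln, a matrix protein, by 2.17. Snap25, a SNARE protein of synaptic vesicle release, was at 17.9, 12.2 and 22.6 with pravastatin and at 4.03, 4.21 and 4.15 with vehicle (1.92, limma adjusted p = 0.000907). Of 12 neuron markers tested it alone passed by limma. Syt1, a calcium sensor of synaptic vesicles, was at 31.7, 5.35 and 6.99 with pravastatin, against 12.9, 3.81 and 4.51 with vehicle (0.76), with adjusted p = 0.0773 by limma, 0.0421 by edgeR, 0.0123 by DESeq2 and 0.0245 by limma-voom, and 0.00407 by limma without culture 3. The neurofilament genes Nefm and Nefl changed by 0.39 and 0.29, and Map2, Dcx and Tubb3 by -0.00, -0.09 and 0.20. The summed value of the neuron markers was 925, 1117 and 986 with pravastatin and 845, 1099 and 1018 with vehicle. Ggt7 of glutathione metabolism, Rras, a Ras family GTPase, and Cdkn2b, an inhibitor of G1 kinases, rose by 1.37, 0.92 and 0.82.
Outside the lipid lists, pseudogene copies included, the rise was largest in culture 1 for 70 of 137 genes. The medians were 1.02, 0.84 and 0.92 in cultures 1, 2 and 3.

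By annotation 166 of the 180 genes called higher code for protein and 11 are pseudogenes. The coding gene closest in sequence to each of these 11 was itself called higher. Gm13502 matches Idi1 at 100% over 684 bases and rose by 1.78, and Gm3571 matches Fdps at 98.9% over 1062 bases and rose by 2.00. Reads of such copies cannot be assigned with certainty, so the pseudogene values are uncertain.

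Besides Abca1 and Apoe, the genes called lower were Kcnip2 (-1.03), a potassium channel subunit, Myl9 (-0.69), a myosin light chain, 1500009C09Rik (-0.66), Wnt7b (-0.62), a Wnt ligand, and Tst (-0.59), a sulfurtransferase. Wnt7b stood at 52.1, 152 and 93.8 with pravastatin, against 74.0, 213 and 172 with vehicle, so it was lower in each pair while the groups overlapped (limma adjusted p = 0.00823). Without culture 2 the adjusted p was 0.247 for Kcnip2, 0.357 for Myl9, 0.288 for 1500009C09Rik and 0.153 for Tst, and without culture 3 it was 0.0759 for 1500009C09Rik. For Myl9 the adjusted p was 0.0863 by DESeq2 and 0.0504 by limma-voom. Only 6 of the 28 genes past adjusted p in the lower direction had groups that did not overlap, against 2.9% of all genes. Among the smaller falls, Gss, which makes glutathione, was at 12.9, 13.6 and 13.0 with pravastatin and at 19.6, 17.7 and 19.0 with vehicle. Its change was -0.49 (limma adjusted p = 0.0457, and 0.0512 without culture 1), with adjusted p = 0.0941 by DESeq2. On chromosome 2 Gss (155563181-155592810, minus strand) overlaps Acss2 (155517948-155585724, plus strand), which rose as described above. Ggt7 (155490379-155518237, minus strand) overlaps the start of Acss2. The part of this overlap in the counts of Gss and Ggt7 was not tested. Hmox1, the inducible haem oxygenase, fell by 0.42 and the astrocyte markers Gja1 and Fgfr3 fell by 0.48 and 0.33. Without culture 2 their adjusted p was 0.239, 0.0693 and 0.238, and that of Gss was 0.221. The 19 astrocyte markers tested did not move as a group. Of these, 3 were higher in all 3 cultures, 5 were lower and 11 were mixed. Aldoc and Cd44 were higher in each culture, by 0.37 and 0.41 on average, and did not pass over the 3 cultures.

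Among immediate early and Krüppel-like factors 4 of 24 rose by the test, against 1.95% of all genes. Of the 24, 15 were higher in all 3 cultures (18.4% of all genes), and the median change was 0.26. Fosb, at 58.4, 64.8 and 33.9 with pravastatin against 39.8, 40.2 and 25.5 with vehicle, had the largest rise, 0.54 (limma adjusted p = 0.0108). Klf6, Junb and Atf3 rose by 0.48, 0.40 and 0.33. Without culture 2 the adjusted p was 0.158 for Fosb, 0.257 for Klf6, 0.348 for Junb and 0.469 for Atf3. Atf4, the effector of the integrated stress response, rose by 0.52 as 1 of 2 of 22 stress response genes that passed, with adjusted p = 0.0512 by limma without culture 2.

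The other lists held few or no genes past the test. In DNA replication (27 genes), mitosis (27), apoptosis (25), p53 targets (20), autophagy and the lysosome (30), the Notch (15) and Hedgehog (10) pathways, neural stem markers (17) and mitochondrial mRNAs (7), none of 174 genes passed in either direction by limma. An unadjusted p under 0.05 was found for 31 of the 174, and for 2188 of all 15185 genes tested. edgeR and limma-voom also passed 0 of the 174, and DESeq2 passed 2. Over all genes tested, 1.95% rose and 0.184% fell by adjusted p in limma. For the isoprenoid branch and prenylation 1 of 19 rose (Chml, a Rab escort protein, by 0.52 and with adjusted p = 0.218 without culture 2), for D cyclins and their partners 1 of 19, and for glutathione and antioxidant genes 1 of 23 rose and 2 fell. Of 15 growth factor receptors 2 rose and 1 fell, of 19 astrocyte markers 2 fell, and of 16 oligodendrocyte lineage markers 1 rose (Ugt8a, by 0.58, adjusted p = 0.394 without culture 2). None of 4 endothelial markers and 1 of 4 mural markers, Pdgfrb, passed.

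Several of these genes moved in opposite directions in the 3 cultures. The cyclin D1 gene Ccnd1 had values of 1255, 392 and 974 with pravastatin, against 1360, 217 and 474 with vehicle, so it was higher by 0.85 and 1.04 in cultures 2 and 3 and lower by 0.12 in culture 1 (mean 0.59, limma adjusted p = 0.21, and 5.14e-05 without culture 1). Gfap changed by 0.49, 0.31 and -1.36 and Aqp4, the water channel of astrocyte endfeet, by 0.26, -0.08 and -0.93. Gfap had a mean change of -0.19, and of 0.40 without culture 3 (limma adjusted p = 0.0101). Culture 1 was the only culture in which Ccnd1 fell, and culture 3 the only one in which Gfap fell. The fits without them keep only pairs that rose, so their small p values follow largely from what was left out. Medians of the astrocyte markers were 0.07, 0.05 and -0.31 and of the DNA replication genes -0.27, -0.02 and 0.12. Of all genes at a mean value of at least 10, Angptl4, Abhd3, Gfap, Angpt2, Apln and Col18a1 had the widest range of change over the cultures, and none passed the test. Angptl4, a secreted lipase inhibitor, was at 1.48, 57.4 and 7.39 with pravastatin against 1.40, 89.0 and 34.1 with vehicle. Across 15185 genes, the change in culture 3 correlated at -0.530 with the difference between vehicle-treated culture 2 and the male vehicle mean, which come from libraries outside that pair. The change in culture 1 correlated at 0.232 with that difference and at 0.178 with the difference between vehicle-treated culture 3 and the male vehicle mean. The change in culture 2 correlated at -0.179 with the difference for culture 3. These are descriptions across genes, which are not independent.

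**Figure D5:**
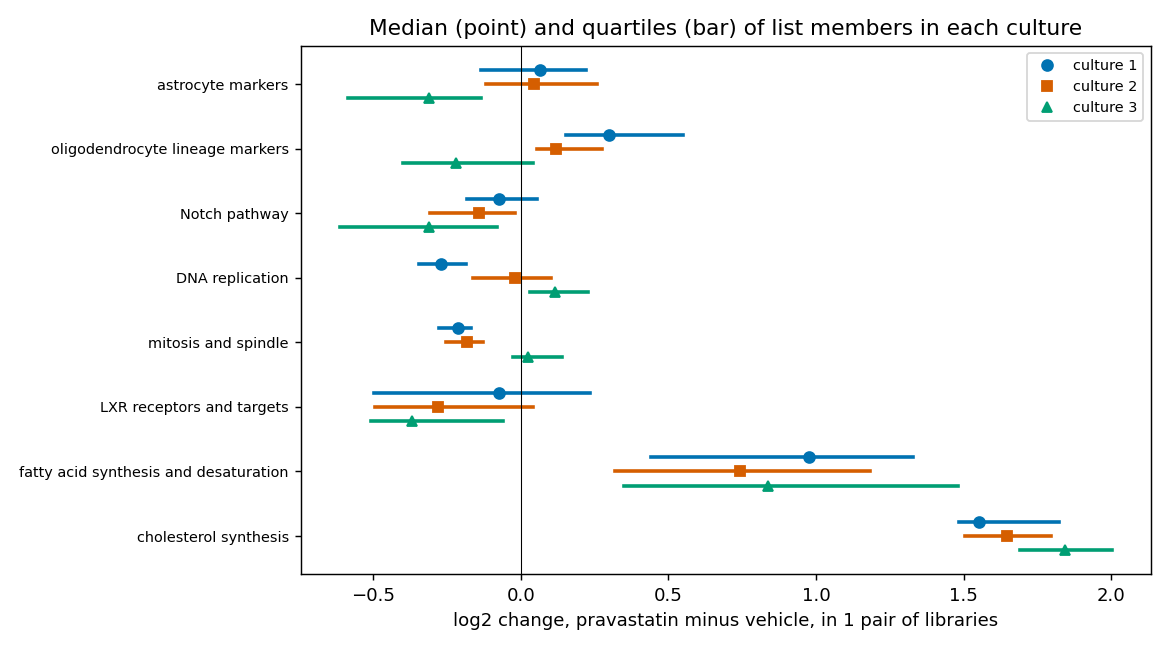
Median (point) and quartiles (bar) of the log2 change (pravastatin minus vehicle) of list members in cultures 1, 2 and 3, each from 1 pair of libraries. Cholesterol synthesis (1.55, 1.65 and 1.84) is far above 0 in every culture, while astrocyte markers (0.07, 0.05 and -0.31) and DNA replication genes (-0.27, -0.02 and 0.12) are not on one side.

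The correlation of changes across genes was 0.394 between cultures 1 and 2, 0.253 between 1 and 3 and 0.513 between 2 and 3. Over the 14861 genes not past adjusted p it was 0.190, 0.0194 and 0.362 for the same pairs of cultures. These values are across genes and have no test.

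The female response was set beside that of the male cultures. Testing the female minus the male change with limma, 0 of 15550 genes passed adjusted p (0%), the smallest being 0.640, with 1130 genes at an unadjusted p under 0.05, and edgeR, DESeq2 and limma-voom also gave 0, with 1112, 498 and 1099 genes at an unadjusted p under 0.05. All 180 genes called higher had a mean change above 0 in males, with a median male change of 1.14 and a median female minus male difference of -0.06. Of these 180 genes 29 had an unadjusted interaction p under 0.05, with the change higher in females for 8 of the 29. All 28 genes past adjusted p in the lower direction had a mean change below 0 in males. Without female culture 1 the difference passed for 149 genes, by limma.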

How the data were processed

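NSPC libraries from 3 female cultures with pravastatin and 3 with vehicle were analysed, with 6 male libraries for the interaction. The deposited signal values are read counts that the authors made with TopHat2 2.1.1 and HTSeq on GRCm38, normalized per library: all 193272 values were whole reads within 0.001 read (100%) once divided by 1 factor per library. The deposited score (fold change) and p-value columns hold the authors' comparisons and were not used. Values were taken as log2(value + 0.5) and tested with limma 3.58.1 in R 4.3.3 (eBayes with trend) over 15185 genes above 1 in at least 3 of 6 libraries. Same-numbered libraries were taken as 1 culture because both codes of a pair start with the same characters and the deviations from group means correlated at 0.874, 0.875 and 0.420, although the correlation of pravastatin 2 with vehicle 3 was 0.436. Replicates came from separate embryos. An exact sign-flip test with 3 pairs cannot give a two-sided p below 0.25, so limma's moderated test was used.

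Genes named follow a rule: in female cultures the 12 largest rises, 10 smallest p and 10 largest falls among called genes, 4 members of each of 29 lists by p, all cholesterol synthesis genes, markers, the genes the study names and the 6 with the widest range over cultures. Mki67, Fasn, Acacb, Mcat, Tmem97, Gm13502, Aldh9a1, Crmp1, Echdc1 and Spp1 were named after their values were seen. Members and lists were chosen with earlier results of these data known. Some genes that the rule names, and 1 list, are not reported here. Alternatives used edgeR 4.0.16, DESeq2 1.42.0 and limma-voom on the recovered reads, other pseudocounts, filters and scalings, no culture term and leaving out each culture. The spread shared over all 12 libraries was added after seeing the data. Promoters were matched for 9939 of 15185 genes.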

Additional observations from a re-analysis of the deposited data

How the results depend on the processing

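A value below that of 3 reads cannot be told from 0 at this depth, for counting error only. All 20 cholesterol synthesis genes kept an adjusted p under 0.05 in every alternative except the fit without the replicate block, where 6 did. Genes called higher numbered 11 without the block (limma, 431 genes at an unadjusted p under 0.05), 104 with limma without its trend and 162 to 236 when 1 culture was left out. Genes called lower numbered 17 with DESeq2, 0 without the block, 1 without the trend, 27 with the spread shared over all 12 libraries and 5 to 84 with 1 culture left out. Genes past adjusted p alone in the higher direction numbered 11, 104, 485 and 174 to 532 without the block, without the trend, with the shared spread and with 1 culture left out. Those in the lower direction numbered 48 with DESeq2, 0 without the block, 50 after rescaling to equal library totals, 1 without the trend, 106 with the shared spread and 5 to 254 with 1 culture left out. Of the 28 falls in the main fit, 0 passed without the trend, 4 without culture 2 and 20 with DESeq2. The interaction gave 0 to 149 with 1 female culture left out. The share of higher calls was 73.75% without culture 1. Gfap changed by -0.52 to 0.40 with 1 culture left out. Of the single genes, 116 values lost their call in an alternative, 56 of them without the block, and 59 gained one. The cause was not tested.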

Other observations

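The genes called higher outside the lists, chosen here after their values were seen, included the following. Grin1, a glutamate receptor subunit, ranged from 13.3 to 20.6 with pravastatin, against 5.48 to 7.22 with vehicle (log2 change 1.25, limma adjusted p = 0.00119), and the groups did not overlap. Crmp1 and Dpysl2, of axon growth, changed by 1.13 and 0.75, Unc13a, of vesicle priming, by 0.91 and Syn2, a synapsin, by 0.69. These genes are given as values, with no test of them as a group.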
